A study of Mus musculus with 2 samples.

Results

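The 10 genes described here are Trp53, which encodes the tumor suppressor p53, and 9 genes named for their place in the p53 response or in cell death, Mdm2, Cdkn1a, Gadd45a, Gadd45b, Bbc3, Pmaip1, Bax, Ccng1 and Phlda3. They were chosen by name from the 31053 gene names measured, with earlier results of these data known, and all 10 were found in the data. Their expression was followed across the 3 oligodendrocyte lineage types named by the authors, oligodendrocyte precursor cells (OPC), newly formed oligodendrocytes (NFO) and oligodendrocytes, in single cell RNA-seq of the mouse optic nerve with and without optic nerve crush (ONC). The question was which genes of this response differed in level in the lineage after the injury, and in which of its types.

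The uninjured library came from 5 optic nerves and the injured library from 5 optic nerves, taken 2 weeks after ONC, of Wildtype mice of the 129S1/SvlmJ strain. Both sexes were pooled, the mice were 10 weeks old when the nerves were taken, and ONC was performed at 8 weeks of age. No gene was altered in either group. The labels give an age of 56 days and the treatment of the injured library to both samples, so the uninjured library was assigned from its title. Each condition is 1 library of pooled nerves, so no difference between conditions has a replicate check, no test was run, and every interval below covers counting error only.

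p53 is a transcription factor that is held at a low protein level by Mdm2, a ubiquitin ligase that marks it for degradation and that p53 itself induces. Stress such as DNA damage stabilizes the p53 protein, largely without a change in its mRNA, and p53 then induces genes that stop the cell cycle, repair DNA or open the mitochondrial route of apoptosis. Several of these genes, above all Cdkn1a, Gadd45a and Gadd45b, are also induced by other stress pathways, so their mRNA is not a readout of p53 alone. In the oligodendrocyte lineage, OPCs divide, whereas oligodendrocytes have left the cell cycle, and death of oligodendrocytes after injury or demyelination is well known.

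The uninjured library held 959 barcodes and 4414834 unique molecular identifiers (UMIs, counted RNA molecules), of which 58 barcodes were OPCs, 44 were NFOs and 857 were oligodendrocytes. The injured library held 410 barcodes and 2771797 UMIs, of which 17 barcodes were OPCs, 100 were NFOs and 293 were oligodendrocytes. No barcode sequence occurred in both libraries. The OPC and oligodendrocyte names matched their markers, since the summed OPC markers were at 14113 and 12594 CPM (summed UMIs of a gene or list, scaled to a class total of 1000000) in uninjured and injured OPCs and at 41.0 and 66.9 CPM in oligodendrocytes, and the oligodendrocyte markers were at 70446 and 61156 CPM in oligodendrocytes. NFOs were less distinct. Their own markers were at 5524 and 8714 CPM in uninjured and injured NFOs, above the 1071 to 2265 CPM of the other classes. Beside these, NFOs held OPC markers at 4473 and 2754 CPM. Oligodendrocyte markers were above both lists in NFOs, at 12705.8 and 16930.5 CPM. In the 28 of 44 uninjured NFOs with low Malat1, OPC markers, at 6653 CPM, were above NFO markers, at 2404 CPM. The injured oligodendrocytes differed from the uninjured ones in quality. Of them 45.4%, against 5.601% of the uninjured ones, had under 0.5% of their UMIs in Malat1, a nuclear RNA. Their median depth was 1268 UMIs against 3060. NFOs of both libraries were alike in this, with 63.6% of uninjured and 77% of injured ones low in Malat1. Their median depth was 1259.5 and 1258.5 UMIs. Injured oligodendrocytes also carried macrophage RNA, since all 12 macrophage markers were found in them at a summed 343 CPM. In uninjured oligodendrocytes 11 of 12 were found, at 21.4 CPM, and Spp1 was at 0. Injured NFOs held all 12 at 819 CPM.

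The 250 bases before the gene start are shown for 4 of the genes, which differ in their match to the sequence that p53 binds. All are from RefSeq on build GRCm38.p6, written 5′ to 3′ along the gene. Capitals mark p53 half-sites, the 10-base sequences that p53 binds in pairs, except in Gadd45b, where no half-site was found and capitals mark the TATA box TATAAA. Within these stretches Cdkn1a held a pair of half-sites, whereas Mdm2 and Ccng1 each held a half-site without a partner. Only exact matches were marked. In Cdkn1a the bases tgacatgttc, directly after GAACATGTCT, differ from a half-site at their first base and stayed unmarked. Sites elsewhere in these genes were not searched. The levels reported below were not tested against these sequences.
Cdkn1a: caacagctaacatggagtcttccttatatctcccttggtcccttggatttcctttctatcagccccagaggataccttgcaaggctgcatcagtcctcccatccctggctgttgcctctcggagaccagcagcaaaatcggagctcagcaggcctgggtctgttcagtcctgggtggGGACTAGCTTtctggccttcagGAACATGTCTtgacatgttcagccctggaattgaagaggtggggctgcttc
Mdm2: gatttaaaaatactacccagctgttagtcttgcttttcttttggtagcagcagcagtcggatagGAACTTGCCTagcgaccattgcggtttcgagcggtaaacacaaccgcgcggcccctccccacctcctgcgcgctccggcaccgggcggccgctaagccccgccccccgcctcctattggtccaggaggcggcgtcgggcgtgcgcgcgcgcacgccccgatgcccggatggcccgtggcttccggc
Ccng1: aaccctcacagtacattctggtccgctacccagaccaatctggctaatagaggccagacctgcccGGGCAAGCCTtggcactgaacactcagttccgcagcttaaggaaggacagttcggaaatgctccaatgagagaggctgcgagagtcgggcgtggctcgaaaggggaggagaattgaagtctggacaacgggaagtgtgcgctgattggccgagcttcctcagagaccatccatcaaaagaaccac
Gadd45b: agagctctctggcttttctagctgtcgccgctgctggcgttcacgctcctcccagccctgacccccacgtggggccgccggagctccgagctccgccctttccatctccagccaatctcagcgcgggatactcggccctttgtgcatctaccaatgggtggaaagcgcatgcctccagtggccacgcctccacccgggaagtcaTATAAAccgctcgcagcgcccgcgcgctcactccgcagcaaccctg
The stretches lie at chr17:29090729-29090978 for Cdkn1a (plus strand), chr10:117710759-117711008 for Mdm2 (minus strand), chr11:40755287-40755536 for Ccng1 (minus strand) and chr10:80929841-80930090 for Gadd45b (plus strand).

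Of the 10 genes, 9 had at least 1 RefSeq window of 300 bases around a gene start, and Pmaip1 had no entry. A half-site was found in a window of 6 of these 9 genes, Cdkn1a, Mdm2, Ccng1, Gadd45a, Bax and Trp53, whereas 9.55% of the 27025 genes with a window held one. Among the genes not printed above, the half-site was GGGCTAGCCC in Gadd45a, AGGCAAGCTT in Bax and GGACTTGCCC in Trp53, beginning 40, 201 and 75 bases before the start. Cdkn1a held 2 half-sites with a gap of 12 bases between them, GGACTAGCTT and GAACATGTCT, beginning 73 and 51 bases before the start of the upstream of its 2 windows. Such a pair with a gap of at most 13 bases was present in 0.074% of all genes and in no other window of the 9. The second Cdkn1a window, the 3 windows of Bbc3 and the windows of Gadd45b and Phlda3 held no half-site. The site was searched by its name and is its own reverse complement. The AP-1 motif TGANTCA and the cAMP response element TGACGTCA, searched on both strands, were in no window of the 9 genes and in 8.97% and 2.03% of all genes. A match describes the letters of a window and does not show that a factor binds there.

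In oligodendrocytes, 5 of the 10 genes were at least 2-fold higher in the injured library than in the uninjured library. These were the cell cycle inhibitor Cdkn1a, the stress genes Gadd45b and Gadd45a, the proapoptotic Bbc3 and the cyclin Ccng1. The ratios ran from 13.5 for Cdkn1a to 2.47 for Ccng1, and none of the 10 genes was at least 2-fold lower. Trp53, Mdm2, Bax and Phlda3 were within 2-fold of the uninjured level, and Pmaip1 was hardly found at all. A gene was counted in a comparison when it had at least 20 UMIs over both classes, which 9 of the 10 genes had here. Among the 10123 genes counted in oligodendrocytes, 7.72% were at least 2-fold higher and 5.69% were at least 2-fold lower after injury. The median ratio of the 9 genes was 2.47, beside 1.03 over all counted genes. Because the genes were chosen with earlier results of these data known, the distance from all genes is a description and not a test.

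**Figure D1:**
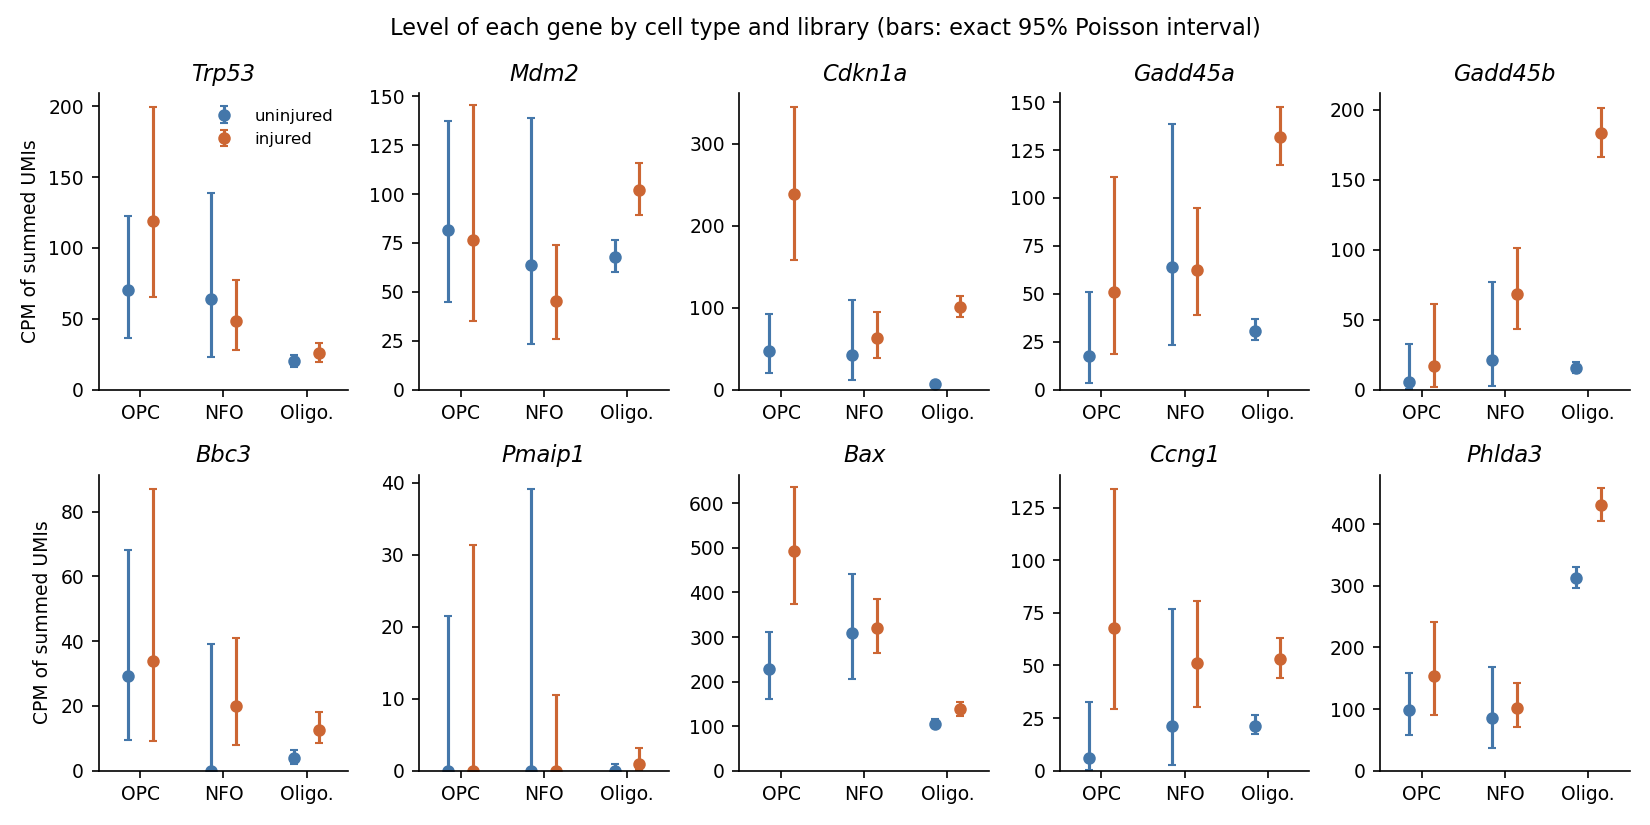
Level of each of the 10 genes in CPM of summed UMIs (vertical axis) in OPCs, NFOs and oligodendrocytes (Oligo.) of the uninjured (blue) and injured (orange) library, with exact 95% Poisson intervals as bars. The injured oligodendrocytes lie apart from the uninjured ones for every gene but Trp53 and Pmaip1, with Cdkn1a at 101 against 7.47 CPM. Most intervals of OPCs and NFOs, which rest on fewer UMIs, overlap.

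Trp53 (ENSMUSG00000059552, chr11:69580359-69591873, plus strand in GENCODE vM21) was at 25.6 CPM in injured and at 20.003 CPM in uninjured oligodendrocytes, from 59 and 83 UMIs. The ratio of 1.28 had an interval of 0.902 to 1.81, which includes 1. Its RNA was highest in OPCs, at 119 CPM in the injured and 70.04 CPM in the uninjured library, and was at 48.3 and 63.7 CPM in injured and uninjured NFOs. Every neighbor in this order of 6 classes overlapped the next within counting error. Mdm2 (ENSMUSG00000020184, chr10:117688875-117710758, minus strand), the ubiquitin ligase of p53, was at 102 CPM in injured and 68.0 CPM in uninjured oligodendrocytes, a ratio of 1.502 (interval 1.26 to 1.79). When each barcode was given equal weight, by averaging the CPM of barcodes, the Mdm2 ratio was 0.849, on the other side of 1.

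Cdkn1a (ENSMUSG00000023067, chr17:29090976-29100727, plus strand) encodes p21, an inhibitor of cyclin-dependent kinases that holds cells out of the cycle. It was at 101 CPM in injured oligodendrocytes, from 232 UMIs, and at 7.47 CPM in uninjured ones, from 31 UMIs. The ratio of 13.5 had an interval of 9.25 to 20.3. Uninjured oligodendrocytes were the lowest of the 6 classes, below uninjured NFOs (42.5 CPM) and OPCs (46.7 CPM) with no overlap of the counting intervals. However, all 4 UMIs of these NFOs lay in 1 barcode, as did 4 of the 8 UMIs of these OPCs. The intervals do not cover such clustering. Injured OPCs were the highest, at 238 CPM.

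Gadd45a and Gadd45b encode small nuclear proteins that bind cell cycle and stress kinase proteins and that are induced by DNA damage and other stress. Gadd45b (ENSMUSG00000015312, chr10:80930073-80932204, plus strand) was at 183 CPM in injured and 15.2 CPM in uninjured oligodendrocytes, a ratio of 12.1 (9.25 to 16.0). Gadd45a (ENSMUSG00000036390, chr6:67035096-67037457, minus strand) was at 132 and 30.8 CPM, a ratio of 4.27 (3.46 to 5.29). For both genes injured oligodendrocytes were the highest of the 6 classes. For Gadd45b they lay apart from the next class, injured NFOs at 68.2 CPM, whereas for Gadd45a they overlapped uninjured NFOs at 63.7 CPM, which rested on 6 UMIs.

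Bbc3, Pmaip1 and Bax belong to the BCL2 family, in which Bbc3 (PUMA) and Pmaip1 (NOXA) are BH3-only proteins that release effectors such as Bax to permeabilize the outer mitochondrial membrane. Bbc3 (ENSMUSG00000002083, chr7:16308393-16318205, plus strand) was at 12.6 CPM in injured and 3.86 CPM in uninjured oligodendrocytes, from only 29 and 16 UMIs, a ratio of 3.27 (1.72 to 6.44). Pmaip1 had 2 UMIs in injured oligodendrocytes and none in the other 5 classes. The 0 of 857 uninjured oligodendrocytes allows a level of up to 0.723 CPM (3 UMIs over the class), so Pmaip1 was not detectable at this depth. Bax (ENSMUSG00000003873, chr7:45461697-45466898, minus strand) was at 139 CPM in injured and 105 CPM in uninjured oligodendrocytes, a ratio of 1.32 (1.14 to 1.53). The effector was thus within 2-fold in the type in which Bbc3 was past it.

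Ccng1 encodes cyclin G1, a long known p53 target that recruits a phosphatase to Mdm2, and Phlda3 encodes a small protein that competes with Akt for membrane lipids. Ccng1 (ENSMUSG00000020326, chr11:40748552-40755311, minus strand) was at 52.99 CPM in injured and 21.4 CPM in uninjured oligodendrocytes, a ratio of 2.47 (1.86 to 3.28). Phlda3 (ENSMUSG00000041801, chr1:135766119-135769136, plus strand) was at 432 and 313 CPM, a ratio of 1.38 (1.27 to 1.5002), and in both libraries was higher in oligodendrocytes than in OPCs or NFOs, where it lay between 85.0 and 153 CPM. GENCODE places an antisense gene over Cdkn1a and another over Gadd45a, which have no row in these tables, and the sources used here do not state whether reads were counted by strand.

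**Figure D2:**
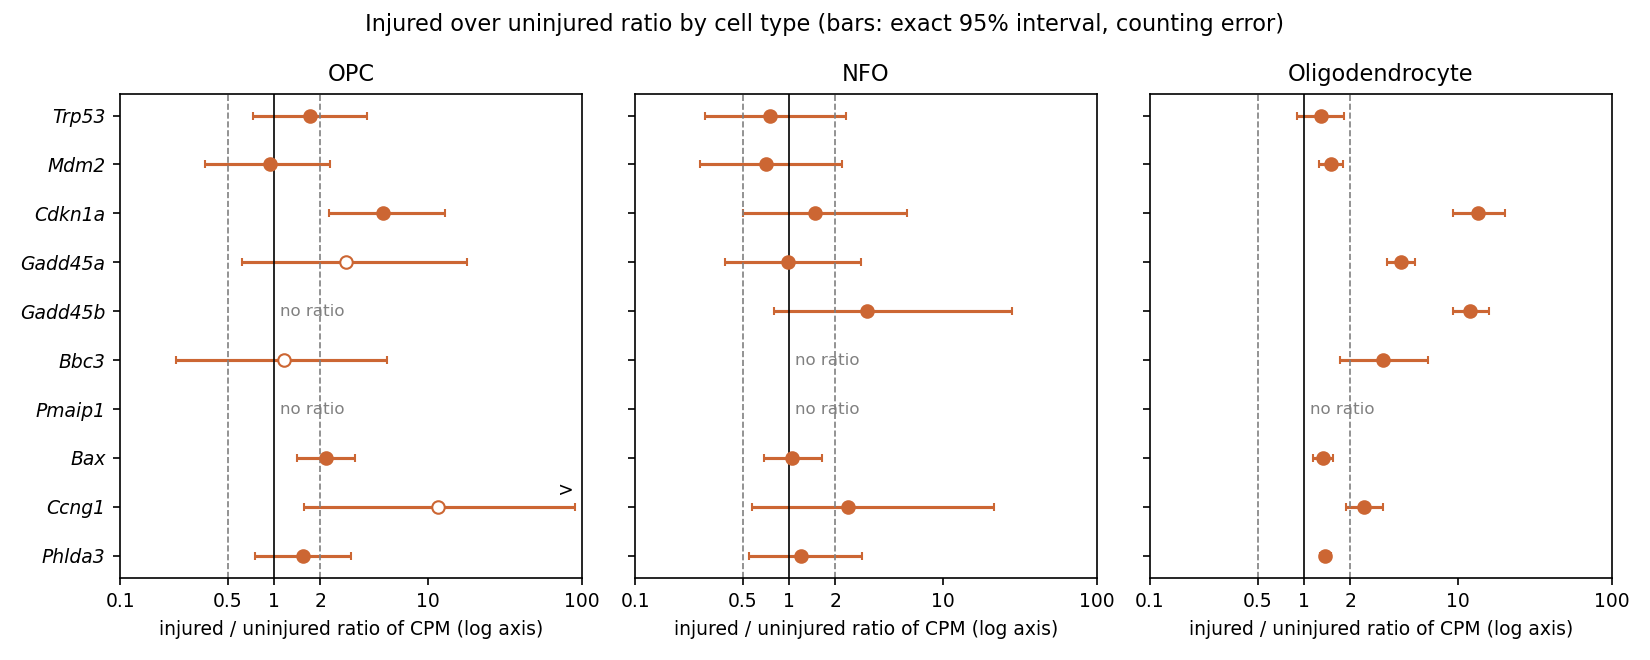
Ratio of CPM, injured over uninjured (horizontal log axis), of each gene in OPCs, NFOs and oligodendrocytes, with exact 95% intervals for counting error as bars and dashed lines at 0.5 and 2. Open points had under 20 UMIs, an arrowhead marks an interval that runs past the axis, and "no ratio" stands where too few UMIs were found. In oligodendrocytes 5 genes lie past 2, and in NFOs every interval includes 1.

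Because the libraries differed in depth and in nuclear RNA, oligodendrocytes were split by their Malat1 share and depth. Of the injured oligodendrocytes, 133 had low Malat1 (under 0.5% of UMIs), 76 others had under 8000 UMIs and 84 others had 8000 or more. Of the uninjured ones these classes held 48, 606 and 203 barcodes. The 84 deep injured barcodes held 86.9% of the UMIs of injured oligodendrocytes, and the 203 deep uninjured ones held 58.7% of theirs, so the ratios above weigh the deep barcodes most. Median depth was still unequal among the deep barcodes, at 22473 UMIs in injured and 11054 in uninjured oligodendrocytes.

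Within the deep barcodes the same 5 genes were past 2-fold. The ratio was 12.5 for Cdkn1a (7.99 to 20.7), 11.4 for Gadd45b (8.28 to 15.9), 4.18 for Gadd45a (3.26 to 5.39), 2.92 for Bbc3 (1.35 to 6.85) and 2.55 for Ccng1 (1.83 to 3.59). Summed macrophage markers in these barcodes were at 105 CPM after injury and at 17.6 CPM without it. Mdm2 was at 1.70 (1.36 to 2.12), Trp53 at 1.44 (0.917 to 2.26), Phlda3 at 1.27 (1.16 to 1.39) and Bax at 1.24 (1.05 to 1.46), where the median of all counted genes was 1.11. In the 76 shallower injured barcodes with Malat1, Cdkn1a and Gadd45b were again higher, at 12.3 (4.99 to 31.4) and 8.06 (3.97 to 16.2). Mdm2 was at 2.39 there (1.59 to 3.50), whereas Phlda3 was lower after injury, at 0.593 (0.367 to 0.912). Gadd45a and Ccng1 were at 1.62 and 1.63 in these barcodes with intervals that include 1, so their call rested on the deep barcodes. In the barcodes with low Malat1, Cdkn1a had 3 UMIs and Gadd45b had 4 in the injured library and neither had any in the uninjured one. Phlda3 was at 281 CPM against 699 CPM in these barcodes, a ratio of 0.402 (0.254 to 0.631). The whole-type ratio of Phlda3 above 1 and its ratios below 1 in both shallower classes thus stood side by side. Bax was also below 1 in both, with intervals that include 1. It was at 0.593 (0.251 to 1.20) in the shallower barcodes with Malat1 and at 0.547 (0.164 to 1.83) in those with low Malat1.

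**Figure D3:**
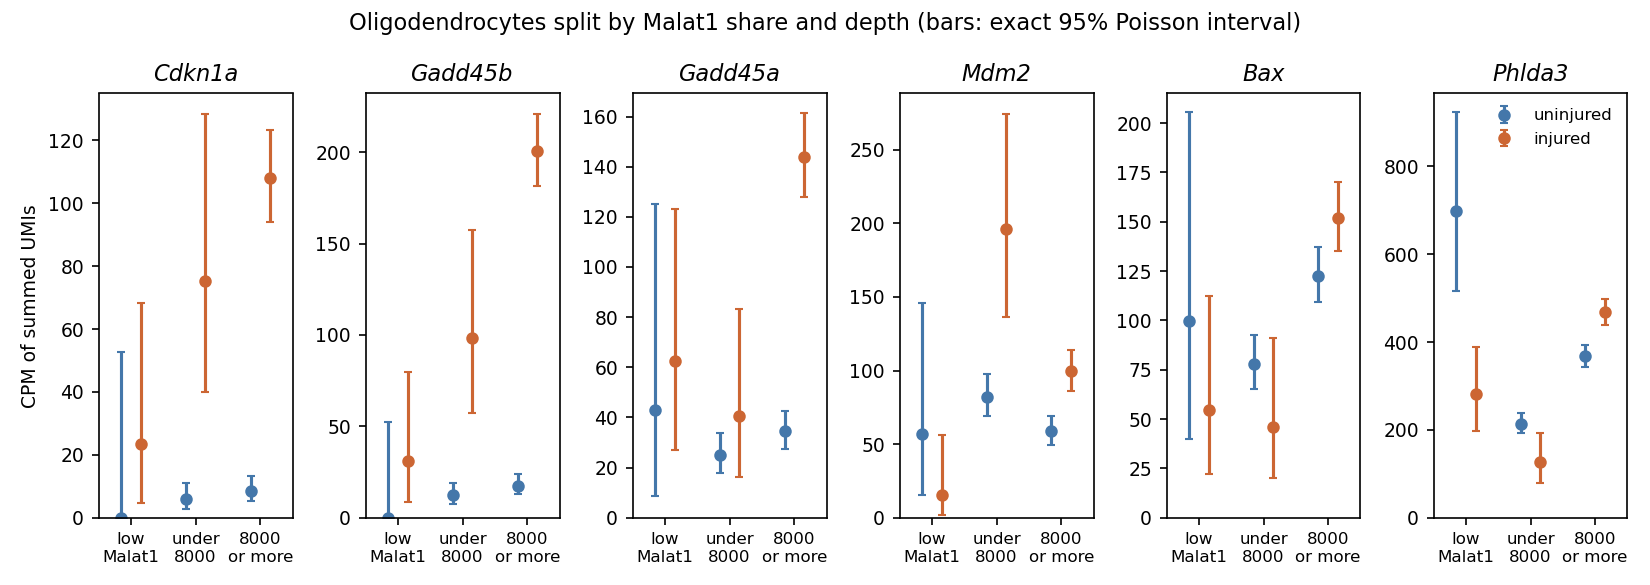
CPM of summed UMIs (vertical axis) of 6 genes in uninjured (blue) and injured (orange) oligodendrocytes, split into barcodes with low Malat1, other barcodes under 8000 UMIs and other barcodes of 8000 or more UMIs, with exact 95% Poisson intervals as bars. Cdkn1a and Gadd45b are apart in both classes with Malat1, whereas Phlda3 is higher after injury only among deep barcodes (468 against 368 CPM).

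To set shares of barcodes side by side, each deep barcode was thinned at random to 8000 UMIs. Cdkn1a was then found in 32.1% of the 84 injured barcodes (exact binomial interval 22.4 to 43.2) and in 7.39% of the 203 uninjured ones (4.19 to 11.9). Without thinning the shares were 44.0% and 7.88%. Gadd45b was found in 46.4% (35.5 to 57.6) against 10.3% (6.52 to 15.4) after thinning. Gadd45a was found in 46.4% against 23.2% (17.5 to 29.6), and Ccng1 in 35.7% (25.6 to 46.9) against 15.8% (11.04 to 21.5). For these 4 genes, then, more of the injured barcodes held the RNA at equal depth. Mdm2 was found in 48.8% against 37.4%, Bax in 70.2% against 66.5% and Phlda3 in 94.0% against 89.2%, with overlapping intervals for all 3, and Trp53 was found in 16.7% against 14.3%. Bbc3 was found in 10.7% (5.02 to 19.4) against 3.45% (1.40 to 6.98). Free RNA was not subtracted, and no type in these tables is known to lack these genes.

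The RNA of the stress genes was spread unevenly over barcodes. Of the 232 Cdkn1a UMIs in injured oligodendrocytes, 50.4% lay in 5 barcodes and 17.2% in 1 barcode of 24457 UMIs, which held 40. The same barcode held the most Bax (25 UMIs), the most Ccng1 (9 UMIs) and the most Trp53 (4 UMIs) of all 293, held 21 UMIs of Phlda3 and none of Gadd45a, and had no UMI of the 6 macrophage genes. Another barcode held 70 of the 303 Gadd45a UMIs with none of Cdkn1a, and yet another held 72 of the 422 Gadd45b UMIs together with 18 of Cdkn1a and 19 of Gadd45a. Phlda3 was the most even, with 12.2% of its UMIs in 5 barcodes. Without the 5 barcodes richest in each gene the ratios were 7.15 for Cdkn1a, 7.70 for Gadd45b, 2.74 for Gadd45a, 2.83 for Bbc3 and 1.88 for Ccng1, so that Ccng1 was no longer past 2-fold.

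Among the 84 deep injured barcodes, Cdkn1a ranged from 0 CPM in 47 barcodes to 1783 CPM, with a median of 0 and a 90th percentile of 351 CPM. In 13 of them it was above the highest of the 203 uninjured barcodes, which was at 206 CPM. Gadd45b had a median of 84.8 CPM and a highest value of 1877 CPM, and 10 injured barcodes were above the uninjured maximum of 461 CPM. Gadd45a had a median of 69.4 CPM and a maximum of 2063 CPM, and 5 barcodes were above the uninjured maximum of 417 CPM. Both Gadd45 genes had an uninjured median of 0 CPM. Phlda3 was found in all 84, from 111 to 1103 CPM with a median of 474 CPM, and none was above the uninjured maximum of 1303 CPM. For every gene the 2 sets of barcodes overlapped, and for Cdkn1a most injured barcodes held none.

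**Figure D4:**
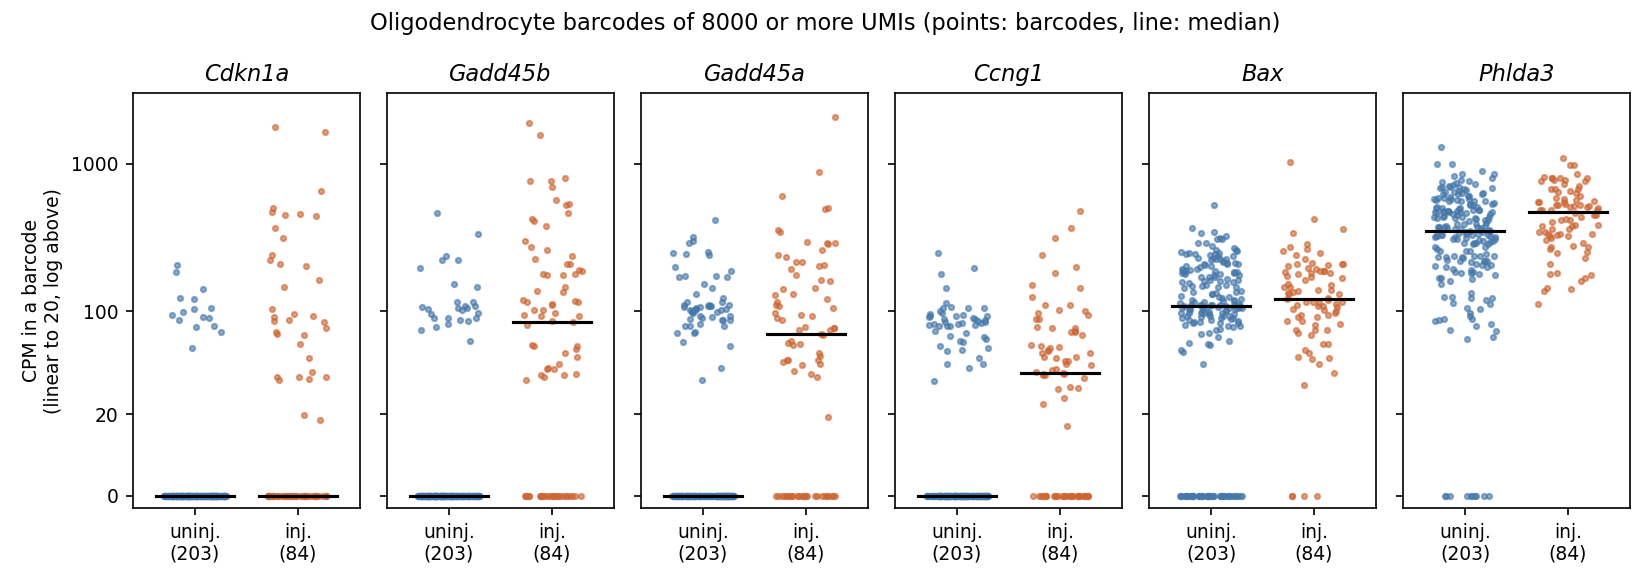
CPM of 6 genes in each oligodendrocyte barcode of 8000 or more UMIs (vertical axis, linear to 20 CPM and log above) in the uninjured (203 barcodes) and injured (84 barcodes) library, each point 1 barcode and each line the median. Cdkn1a, Gadd45b and Gadd45a have their highest values, 1783, 1877 and 2063 CPM, in injured barcodes, whereas Phlda3 and Bax shift little.

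Pairs of the genes were correlated only weakly over barcodes. These values of Pearson's r, on normalized expression (NE), describe barcodes of 1 library that share sparse counts and unequal depth. Over the 84 deep injured oligodendrocytes r was highest for Cdkn1a with Ccng1 (0.41), Bax with Ccng1 (0.33) and Trp53 with Bax (0.27). Next came Cdkn1a with Bax (0.26) and Gadd45a with Gadd45b (0.24). All other pairs lay lower, down to -0.157 for Mdm2 with Phlda3. The same barcode held the most UMIs of Cdkn1a, Bax, Ccng1 and Trp53. The 10 barcodes richest in Cdkn1a and the 10 richest in Ccng1 had 5 in common, as had those of Bax and Ccng1. Over all 293 injured oligodendrocytes and 6784 genes, the gene most like Cdkn1a was Stx17 (r = 0.48), that most like Gadd45b was Dusp10 (0.45), that most like Gadd45a was Epas1 (0.50) and that most like Phlda3 was Atp6v1e1 (0.57). Mdm2 was most like Abcc5 (0.49), Bax most like Gjb1 (0.53), Trp53 most like Gpn3 (0.44) and Ccng1 most like Wtap (0.45). Among the 5 genes most like each of these 8 members, the single other member was Bax, the third most like Ccng1 (0.43). Over the 84 deep barcodes, with 9324 genes found in at least 10% of them, Cdkn1a was most like Exo5 (0.52) and Gadd45b most like Steap3 (0.53). There, none of the 8 genes named above as most like a member was among the 5 most like it.

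Macrophage RNA moved with the injury in oligodendrocytes. Of 11 counted macrophage markers 10 were at least 2-fold higher, with a median ratio of 18.02. In barcodes with no UMI of C1qa, C1qb, C1qc, Tyrobp, Ptprc or Aif1, 136 of the injured and 827 of the uninjured oligodendrocytes, the ratio was 17.97 for Cdkn1a (12.1 to 27.6), 10.5 for Gadd45b (7.74 to 14.3), 5.99 for Gadd45a (4.72 to 7.62), 3.13 for Bbc3 (1.39 to 6.94) and 3.01 for Ccng1 (2.16 to 4.18). All 5 genes thus stayed past 2-fold in barcodes where no UMI of these macrophage genes was found. Mdm2 was at 1.22 there (0.949 to 1.56). This filter left out the macrophage markers Spp1, Lyz2 and Ctss. They were at 58.6, 58.2 and 58.6 CPM in all injured oligodendrocytes, where C1qa was at 27.4 CPM. Whether the barcodes kept carried other macrophage RNA, or too little to be counted, was not tested.

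In NFOs, 2 of the 10 genes were at least 2-fold higher in the injured library, both from few UMIs. Gadd45b was at 68.2 CPM in injured NFOs (24 UMIs) and 21.2 CPM in uninjured ones (2 UMIs), a ratio of 3.21 (0.797 to 28.0). Ccng1 was at 51.2 and 21.2 CPM (18 and 2 UMIs), a ratio of 2.41 (0.577 to 21.4). Both intervals include 1, and 13 of the 24 Gadd45b UMIs came from 1 barcode, without which the ratio was 1.61. Cdkn1a was at 62.5 CPM in 100 injured NFOs and at 42.5 CPM in 44 uninjured ones, where all 4 UMIs came from 1 barcode. Bax, the gene with the most UMIs in NFOs, was at 321 and 308 CPM, a ratio of 1.04 (0.688 to 1.63). Gadd45a was at 62.5 and 63.7 CPM, a ratio of 0.981 (0.386 to 2.96), where oligodendrocytes were at 4.27. Bbc3 had 7 UMIs in injured NFOs and none in uninjured ones, whose floor of 3 UMIs is 31.9 CPM. Of the 4038 genes counted in NFOs 15.8% were higher and 6.86% lower, and the 2 of 8 counted members stand beside that. Injured NFOs held 296 CPM of the 6 macrophage genes and uninjured NFOs held none of their UMIs. In the 50 injured NFOs without such a UMI neither call was kept, since Ccng1, at 3.86 (0.842 to 35.8), fell under the 20 UMIs needed and Gadd45b had 3 UMIs against 2, which gives no ratio.

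In OPCs, Cdkn1a and Bax were at least 2-fold higher in the injured library, among 5 members counted. Cdkn1a was at 238 CPM in 17 injured OPCs (28 UMIs) and 46.7 CPM in 58 uninjured OPCs (8 UMIs), a ratio of 5.10 (2.26 to 12.9). It was found in 6 injured and 5 uninjured barcodes, and 1 injured barcode held 12 of the UMIs, without which the ratio was 3.22. Bax was at 493 and 228 CPM (58 and 39 UMIs), a ratio of 2.17 (1.42 to 3.34). Trp53 was at a ratio of 1.70 (0.730 to 4.02), Phlda3 at 1.54 (0.750 to 3.19) and Mdm2 at 0.937 (0.358 to 2.32). Ccng1 had 8 UMIs against 1, a ratio of 11.7 (1.56 to 517), but was under the 20 UMIs needed to be counted. Of the 3155 genes counted in OPCs 12.6% were higher and 8.65% were lower. Low Malat1 was found in 5 of the 17 injured OPCs and in 0 of the 58 uninjured ones. The 6 macrophage genes were at 93.5 CPM in injured OPCs (11 UMIs) and 23.3 CPM in uninjured OPCs (4 UMIs). A total of 7 injured and 1 uninjured OPC barcodes had 8000 or more UMIs, and among barcodes under that depth Cdkn1a was at 9.27 (2.20 to 44.7) while Bax was at 0.749 (0.193 to 2.11), on the other side of 1. The 989 genes well covered in both classes had a median ratio of 1.30, a shift of 0.37 on the log2 scale, and after scaling by it Cdkn1a was at 3.94 and Bax at 1.67.

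Types within 1 library share its preparation, so the 10 genes were also compared between types. After injury, NFOs had Bax at 2.32 times the level of oligodendrocytes (1.85 to 2.88), and 4 genes at most at a level of 0.5 of theirs. These were Phlda3 at 0.237 (0.165 to 0.330), Gadd45b at 0.372 (0.236 to 0.561), Mdm2 at 0.446 (0.251 to 0.739) and Gadd45a at 0.475 (0.293 to 0.733). Cdkn1a was at 0.621 (0.381 to 0.962), but at 2.02 (0.961 to 4.28) in barcodes under 8000 UMIs. Of the 8943 genes counted, 16% were higher and 20.5% were lower in NFOs. Injured NFOs were mostly shallow, with 77 of 100 barcodes low in Malat1, and in barcodes under 8000 UMIs Gadd45a was on the other side of 1, at 1.78 (0.795 to 3.95). Phlda3, Mdm2 and Bax kept their direction in all 9 alternatives tried for each. The 6 macrophage genes were at 296 CPM in injured NFOs and 132 CPM in injured oligodendrocytes. In barcodes without their UMIs, 50 NFOs and 136 oligodendrocytes, Bax was at 2.22 (1.55 to 3.12), Phlda3 at 0.135, Gadd45b at 0.140, Mdm2 at 0.175 and Gadd45a at 0.335, all 5 past 2-fold in the same direction, and Cdkn1a was also past it at 0.217 (0.0585 to 0.569). The genes well covered in both types had a median ratio of 1.31, a log2 shift of 0.39, relative to which Bax in NFOs was at 1.77.

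Without injury, OPCs had Bbc3 at 7.57 times (2.17 to 21.6), Cdkn1a at 6.25 times (2.48 to 13.9), Trp53 at 3.50 times (1.74 to 6.45) and Bax at 2.18 times (1.53 to 3.02) the level of oligodendrocytes. Phlda3 was at 0.317 (0.184 to 0.510), and Ccng1 and Gadd45b, at 0.272 and 0.384, rested on 1 UMI each in OPCs with intervals that include 1. In OPCs Bbc3 rested on 5 UMIs and Cdkn1a on 8 UMIs, of which 4 lay in 1 barcode. Whether these levels go with cell division was not tested. Of the 9693 genes counted, 24.1% were higher and 19.4% were lower in OPCs, so the counts of 4 and 3 among 9 members stand beside a background in which a 2-fold difference was common. The median ratio of the genes well covered in both types was 1.34, a log2 shift of 0.42, and after scaling by it Bax was at 1.62.

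The members were set beside other genes of the same pathways, in 6 lists. The 17 regulators of p53, such as the kinases Atm and Atr and the Mdm2 partner Mdm4, had 12 members counted in oligodendrocytes, none of them past 2-fold in either direction, with a median ratio of 1.08. Of 30 other p53 targets 18 were counted, 1 was higher and 1 lower, and the median was 1.13. The higher one was Btg2, an antiproliferative gene also induced by growth signals, at 74.3 against 26.8 CPM, a ratio of 2.78 (2.17 to 3.56). The lower one was Sesn1, a stress-induced inhibitor of mTORC1 signaling, at 6.08 against 19.5 CPM, a ratio of 0.311 (0.163 to 0.553). Over all 10123 genes counted in oligodendrocytes 7.72% were higher and 5.69% lower, and the counts among these 18 targets were near those shares. The listed targets that were not counted have no ratio here. Cdkn1a, Ccng1 and Bbc3 were past 2-fold, and most of the 18 counted targets of this list were within it.

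Of 15 further BCL2 family genes 9 were counted and 4 were higher in injured oligodendrocytes, where 7.72% of all counted genes were higher. The proapoptotic Bik was at 5.81 (2.68 to 13.9), from 29 and 9 UMIs. The antiapoptotic Mcl1 was at 232 against 89.7 CPM, a ratio of 2.59 (2.26 to 2.96). Bnip3 and Bnip3l, which are induced by hypoxia and mark mitochondria for autophagy, were at 2.26 (1.93 to 2.65) and 2.17 (2.03 to 2.33). The higher genes of the family thus act on both sides of the decision to die. Of 20 caspase and apoptosome genes 13 were counted and none was past 2-fold in oligodendrocytes, beside 7.72% higher and 5.69% lower over all counted genes. Their median ratio was 0.841, below the 1.03 of all genes.

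Of 12 death receptor and necroptosis genes 9 were counted and 3 were higher, Tnfrsf1a at 9.97 (5.90 to 17.8), Tnfrsf12a at 9.69 (4.50 to 23.9) and Ngfr at 5.41 (2.06 to 16.6). They encode receptors for TNF, for TWEAK and for neurotrophins. Over all genes counted in oligodendrocytes 7.72% were higher and 5.69% were lower. Of 13 GADD45 and cyclin kinase genes 12 were counted, 2 were higher and 1 was lower, beside the same shares. The lower one, Cdk2, had 6 UMIs against 22, a ratio of 0.492 (0.163 to 1.25). Gadd45g, the third GADD45 gene, was at 163 against 9.40 CPM, a ratio of 17.4 (12.5 to 24.8), so that all 3 genes of the family were higher in injured oligodendrocytes. Ccnd1, cyclin D1, was at 3.66 (2.41 to 5.65). In NFOs Gadd45g was at 4.46 (2.65 to 8.09) and Ccnd1 was lower at 0.499 (0.315 to 0.806).

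**Figure D5:**
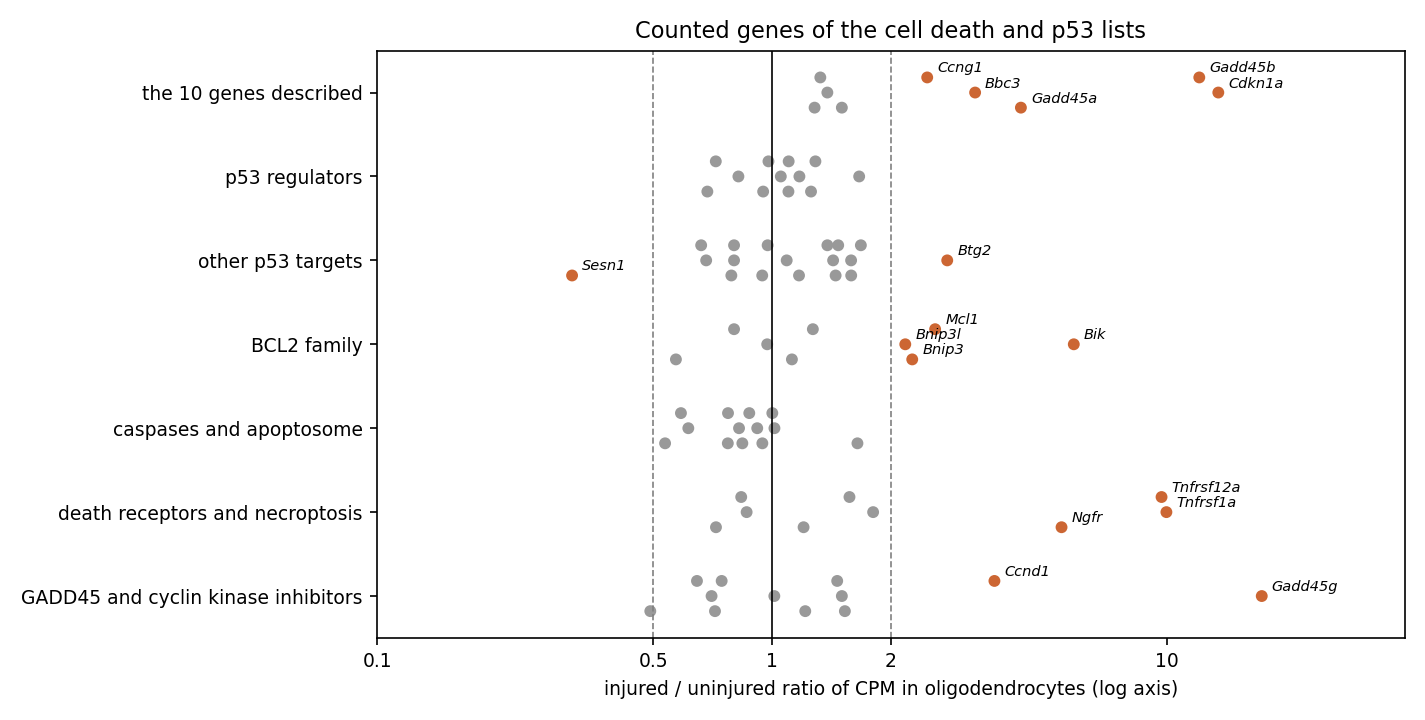
Ratio of CPM, injured over uninjured, in oligodendrocytes (horizontal log axis) of the counted genes of each list, with dashed lines at 0.5 and 2. Named orange points are past 2-fold with an interval that does not include 1. Caspases and p53 regulators lie within 2-fold, whereas Cdkn1a, Gadd45b and Gadd45g lie past 10.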

How the data were processed

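Single cell RNA-seq of optic nerve cells was made on the 10x Chromium system. Per the submitters' processing notes, reads were processed with Cell Ranger 1.3 on mm10 and values were computed in Seurat 4.0.3. The deposited values are the natural log of 1 plus 10000 times a barcode's share of UMIs for a gene (NE), by the authors, who also typed the barcodes, filtered them and capped their UMIs. UMIs were recovered as whole numbers (tolerance 0.001) in 100% of barcodes of both libraries. No doublet caller was run. The deposited table that combines both libraries was not used.

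UMIs were summed per type and library and divided by the class total to give CPM. With 1 library per condition no test was possible. A gene with at least 20 summed UMIs was counted, and a ratio of at least 2 or at most 0.5 was past the fold. Intervals (95%) are exact Poisson for CPM, exact conditional binomial for ratios and exact binomial for shares, and cover counting error only. The floor is 3 UMIs over a class. Median depth was 2782 UMIs in the uninjured and 1304.5 in the injured library.

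The 10 genes and all lists were chosen with earlier results of these data known. Of the lists, at most 4 genes per direction past the fold with an interval that excludes 1 were named in oligodendrocytes and NFOs, and likeness was ranked among genes found in at least 10% of injured oligodendrocytes. One listed gene that the rule would name is not reported here. Cdk2 was named after its value was seen. Leaving out the 5 barcodes richest in a gene and using only barcodes of 8000 or more UMIs were chosen after seeing the data. The other alternatives changed the filter, depth, Malat1 share, weighting, scaling, richest barcode, macrophage RNA and the 20 UMI minimum. Scripts were run in Python 3.11.15 with pandas 2.3.3, scipy 1.17.1, numpy 2.4.6 and matplotlib 3.10.9.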

Additional observations from a re-analysis of the deposited data

Results flagged for a closer look

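Members whose injured over uninjured ratio lay on opposite sides of 1 in 2 types are given here. Each difference between types was not tested, since each condition is 1 library. Trp53 was at 1.28 in oligodendrocytes and 1.70 in OPCs but at 0.758 in NFOs, and each of these intervals includes 1. Mdm2 was at 1.502 in oligodendrocytes but at 0.713 in NFOs (0.265 to 2.23) and 0.937 in OPCs, where both intervals include 1. Gadd45a was at 4.27 in oligodendrocytes (3.46 to 5.29) and at 0.981 in NFOs (0.386 to 2.96). These 2 intervals do not overlap, but they cover counting error only. In injured oligodendrocytes 70 of the 303 Gadd45a UMIs lay in 1 barcode. In oligodendrocytes with Malat1 and under 8000 UMIs the ratio was 1.62 (0.613 to 3.65), which overlaps the NFO interval.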

How the results depend on the processing

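No paired analysis was possible because each group holds 1 library. Of 359 values of the members under alternatives, 305 lay within the interval of the value reported, 47 lay outside it, and 7 ratios that had been past 2-fold crossed 1. The cause of these changes was not tested, apart from the fewer UMIs that thinning and the higher minimum leave.

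In oligodendrocytes the 5 members past 2-fold between libraries became 2 in barcodes under 8000 UMIs and 1 with barcodes thinned to 500 UMIs, where Ccng1 was at 0.715. Part of this drop came from the minimum of 20 UMIs, which Cdkn1a and Gadd45b missed when thinned (12.9 and 4.58) and Bbc3 missed under 8000 UMIs (4.74). Over 10 alternatives each, Cdkn1a ranged from 7.15 to 17.97, Gadd45b from 4.58 to 12.4 and Gadd45a from 1.94 to 5.99, and Bbc3 ranged from 2.61 to 4.74 over 9. In NFOs the 2 members past 2-fold became 1 with the stricter filter and 1 with at least 0.5% Malat1. They became 0 under 8000 UMIs, 0 when thinned, 0 without the richest barcode, 0 without the 5 richest barcodes, 0 in barcodes without a macrophage UMI and 0 at a minimum of 50 UMIs. In OPCs the 2 members became 0 under 8000 UMIs and 0 when thinned, with Bax at 0.749 and 0.412. Cdkn1a missed only the minimum under 8000 UMIs, at 9.27, and ranged from 3.22 to 9.27 over the 7 alternatives that gave a ratio. They became 1 after scaling, 1 without the richest barcode and 1 at a minimum of 50 UMIs.

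Between NFOs and oligodendrocytes after injury, the 5 members became 3 when thinned, 8 with at least 0.5% Malat1, 2 by mean CPM of barcodes and 3 without the 5 richest barcodes. Gadd45a was at 1.78 under 8000 UMIs, 1.22 when thinned and 1.32 by mean CPM, and Gadd45b was at 1.83 when thinned. Between OPCs and oligodendrocytes without injury, the 7 members became 1 when thinned. The 2 alternatives chosen after seeing the data were not run for OPCs between libraries, where a class holds under 20 barcodes, and the use of deep barcodes alone was run only for oligodendrocytes between libraries. OPCs rest on 17 injured and 58 uninjured barcodes, and Pmaip1 was at or under the floor of 3 UMIs in every type.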
